A study of Mus musculus with 6 samples.

Results

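A set of 8 genes of the S100 family, S100a1, S100a4, S100a6, S100a8, S100a9, S100a10, S100a11 and S100a13, was described across 6 RNA sequencing libraries of tumour-associated macrophages. They were chosen by gene symbol, with no cut-off on a measured value, as the 8 genes among 55487 that GENCODE M21 names so on the mouse GRCm38 build, and all 8 had reads and passed the filter on low counts. The cells came from subcutaneous flank tumours of Lewis lung carcinoma, a mouse cancer line that grows when injected into C57BL/6 mice, collected on days 15 to 17. Dissociated tumours were enriched for CD11b and sorted for cells with CD11b and F4/80, without Ly6C and Ly-6G, into 3 libraries titled MHC-IIhigh and 3 titled MHC-IIlow, 1 of each per batch. No age or sex of the mice, no genetic change and no treatment is given for either group, and the labels do not say that libraries came from separate mice, so p-values cover the spread among these 6 libraries, part or all of which may be technical.

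S100 proteins are small calcium-binding proteins of vertebrates with a pair of EF-hands, the helix-loop-helix fold that holds calcium, and most act as dimers. On binding calcium they expose a surface that grips other proteins, such as annexins, non-muscle myosin and p53. Some are also released and act as alarmins, signals of tissue damage that are sensed through RAGE and TLR4. S100a8 and S100a9 form calprotectin and are abundant in neutrophils and monocytes, while S100a4, S100a6, S100a10 and S100a11 are common in macrophages and many other cells and work with the cytoskeleton and membranes.

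The libraries held between 10202879 and 25473051 reads in genes. Transcripts of MHC class II, the protein that divided the cells, went against the titles: H2-Aa, a chain of that protein, stood at 4.40 to 6.69 CPM (counts scaled to 1e6 per library) in the libraries labelled MHC-IIhigh, against 1166 to 1506 CPM in those labelled MHC-IIlow, and all 4 class II genes checked were called lower under the high label. Groups are therefore called by their labels, and each direction is that of the labels. The F4/80 gene Adgre1 averaged 344 ± 26 CPM in labelled MHC-IIhigh and 184 ± 34 CPM in labelled MHC-IIlow (SD, n = 3 each). Itgam, which encodes CD11b, averaged 307 ± 8.2 CPM in labelled MHC-IIhigh and 265 ± 71 CPM in labelled MHC-IIlow, so both markers of the sort were present. Labelled MHC-IIlow replicate 3 stood apart, with 47.3% of its reads in genes in 1 copy of rRNA, against 3.85% to 13.5% in the other libraries. Its log2 CPM also had the steepest slope on the GC content of genes, 0.82 per 10 percentage points, against -0.46 to 0.21 elsewhere. Dendritic cell markers, 9 of 9 with reads, summed to 47.8 to 90.7 CPM in labelled MHC-IIhigh and 275 to 409 CPM in labelled MHC-IIlow. Most of the sum came from the integrin gene Itgax. Of 6 tested, Flt3, Ccr7 and Cd209a passed the filter on low counts through the labelled MHC-IIlow libraries alone. A difference was thus built into their being tested, and no call of them is given. Itgax, Ccl22 and Zbtb46 were each lower under the high label with no overlap, as were 9.48% of all tested genes. By edgeR, Itgax and Ccl22 were called lower (adjusted p 0.0275 and 0.000577), as were 0.354% of all tested genes. Zbtb46 was not called (adjusted p 0.256 by edgeR). The part of dendritic cells in the results that follow was not tested.

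All 8 genes lie on mouse chromosome 3 (GRCm38), in 2 groups. The first spans 184688 bases and holds S100a1 (90511034 to 90514392, minus strand), S100a13 (90514435 to 90524581, plus), S100a4 (90603771 to 90606045, plus), S100a6 (90612882 to 90624181, plus), S100a8 (90668978 to 90670035, plus) and S100a9 (90692632 to 90695721, minus). The second spans 44156 bases and holds S100a11 (93520488 to 93526287) and S100a10 (93555080 to 93564643), both on the plus strand. S100a1 and S100a13 are arranged head to head with 42 bases between the annotated genes. S100a4 shares 302 of its 584 exon bases with a gene on the same strand, Gm42674, which had 0 reads in all 6 libraries. Reads in shared bases cannot be assigned, so the level of S100a4 is uncertain and may be understated. None of the other 7 genes of the set shares exon bases with another gene in GENCODE M21.

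Promoter windows of 250 bases before to 50 bases after the RefSeq start were at hand for 7 of the 8 genes from RefSeq (GRCm38.p6), with none for S100a10. The windows of S100a13 and S100a1 overlap by 204 bases. The S100a13 window is shown for that shared stretch, chr3:90514185-90514484 on the plus strand, 5′ to 3′, with the bases that also lie in the S100a1 window in capitals.
S100a13: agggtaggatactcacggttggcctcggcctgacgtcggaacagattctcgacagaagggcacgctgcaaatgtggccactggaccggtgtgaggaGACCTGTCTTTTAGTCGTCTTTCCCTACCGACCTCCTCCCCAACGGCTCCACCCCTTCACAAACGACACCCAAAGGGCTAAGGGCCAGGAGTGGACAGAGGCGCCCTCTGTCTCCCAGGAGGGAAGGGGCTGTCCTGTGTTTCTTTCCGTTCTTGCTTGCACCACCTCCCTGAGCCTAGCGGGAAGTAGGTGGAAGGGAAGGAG
The windows of the alarmin genes S100a8 (chr3:90668821-90669120, plus) and S100a9 (chr3:90695672-90695971, minus), and of S100a4 (chr3:90603520-90603819, plus) and S100a11 (chr3:93520246-93520545, plus), follow, to set the 2 genes with the lowest levels of the 8 beside 2 at higher levels. Capitals mark matches to any of 6 motifs searched on both strands, which were TATAAA (the TATA box), CCAAT (the binding motif of NF-Y), GGGCGG (the GC box), TGANTCA (of AP-1), GAGGAAGT (of PU.1) and TTGCNNAA (of C/EBP).
S100a8: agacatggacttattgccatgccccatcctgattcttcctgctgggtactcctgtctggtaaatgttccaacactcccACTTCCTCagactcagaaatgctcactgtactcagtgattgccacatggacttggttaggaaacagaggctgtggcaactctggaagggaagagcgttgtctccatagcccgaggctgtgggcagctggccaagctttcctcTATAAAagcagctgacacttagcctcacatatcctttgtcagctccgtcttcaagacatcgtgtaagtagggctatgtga
S100a9: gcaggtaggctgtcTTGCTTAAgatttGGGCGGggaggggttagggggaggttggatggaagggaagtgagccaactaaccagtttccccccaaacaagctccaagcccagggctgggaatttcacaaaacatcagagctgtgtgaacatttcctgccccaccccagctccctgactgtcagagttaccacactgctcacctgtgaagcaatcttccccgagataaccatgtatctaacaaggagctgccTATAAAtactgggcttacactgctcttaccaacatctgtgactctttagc
S100a4: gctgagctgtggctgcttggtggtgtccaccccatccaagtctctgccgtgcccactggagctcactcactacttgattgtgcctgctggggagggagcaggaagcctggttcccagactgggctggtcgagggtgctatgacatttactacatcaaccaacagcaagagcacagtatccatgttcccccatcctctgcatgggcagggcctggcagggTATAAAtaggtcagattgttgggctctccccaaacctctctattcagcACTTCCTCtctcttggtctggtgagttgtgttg
S100a11: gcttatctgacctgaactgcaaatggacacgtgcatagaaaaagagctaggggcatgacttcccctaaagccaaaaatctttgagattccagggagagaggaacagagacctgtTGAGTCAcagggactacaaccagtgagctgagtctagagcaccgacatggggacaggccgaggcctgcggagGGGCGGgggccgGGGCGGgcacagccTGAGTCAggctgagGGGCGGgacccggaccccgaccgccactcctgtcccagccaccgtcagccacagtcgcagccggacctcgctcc
The TATA motif began 30 bases before the start of S100a8, 31 before that of S100a4 and at base 1 of S100a9, and 13.6% of the 32851 windows in the table held it. S100a8 and S100a4 also held 1 PU.1 motif each, found in 3.2% of windows. S100a11 had 3 GC boxes (35.7% of windows held 1 or more) and 2 AP-1 motifs (7.81%) and no TATA motif. S100a9 had 1 GC box and 1 C/EBP motif (10.8%), S100a6 had 1 CCAAT motif (37.4%), and the windows of S100a1 and S100a13 held none of the 6. No motif overlapped another in these windows. These matches describe letters only.

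Set per length of summed exons, S100a11, S100a6 and S100a10 were the most abundant of the 8, at means over 6 libraries of 237, 211 and 197 CPM per kb. Their levels exceeded those of 99.4%, 99.2% and 99.2% of the 11626 protein-coding genes tested. The order of these 3 was not stable, since S100a11 was above S100a6 in 3 of 6 libraries and S100a6 above S100a10 in 3 of 6. With the length of the longest RefSeq mRNA in place of the summed exons, an alternative added after the data were seen, S100a6 came first at 395 CPM per kb, S100a10 next at 348 and S100a11 after them at 237. S100a1 and S100a4 followed at 63.6 and 62.5 CPM per kb, and S100a1 was above S100a4 in 2 of 6 libraries. Over the 282 bases that S100a4 does not share with Gm42674 its level was 129 CPM per kb, which would place it above S100a1. S100a13 stood at 32.6, S100a8 at 5.55 and S100a9 at 2.08 CPM per kb, and each was below the gene before it in 6, 6 and 5 of 6 libraries. S100a1, S100a4 and S100a13 exceeded 96.9%, 96.8% and 93.3% of tested coding genes, S100a8 58.8% and S100a9 31.9%. The reads of S100a6, S100a10 and S100a11 made up 85.6% to 86.4% of all reads of the 8 genes in labelled MHC-IIhigh and 84.1% to 86.1% in labelled MHC-IIlow. All 8 together summed to 733 to 852 CPM in labelled MHC-IIhigh, against 664 to 804 CPM in labelled MHC-IIlow, and these ranges overlap.

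**Figure D1:**
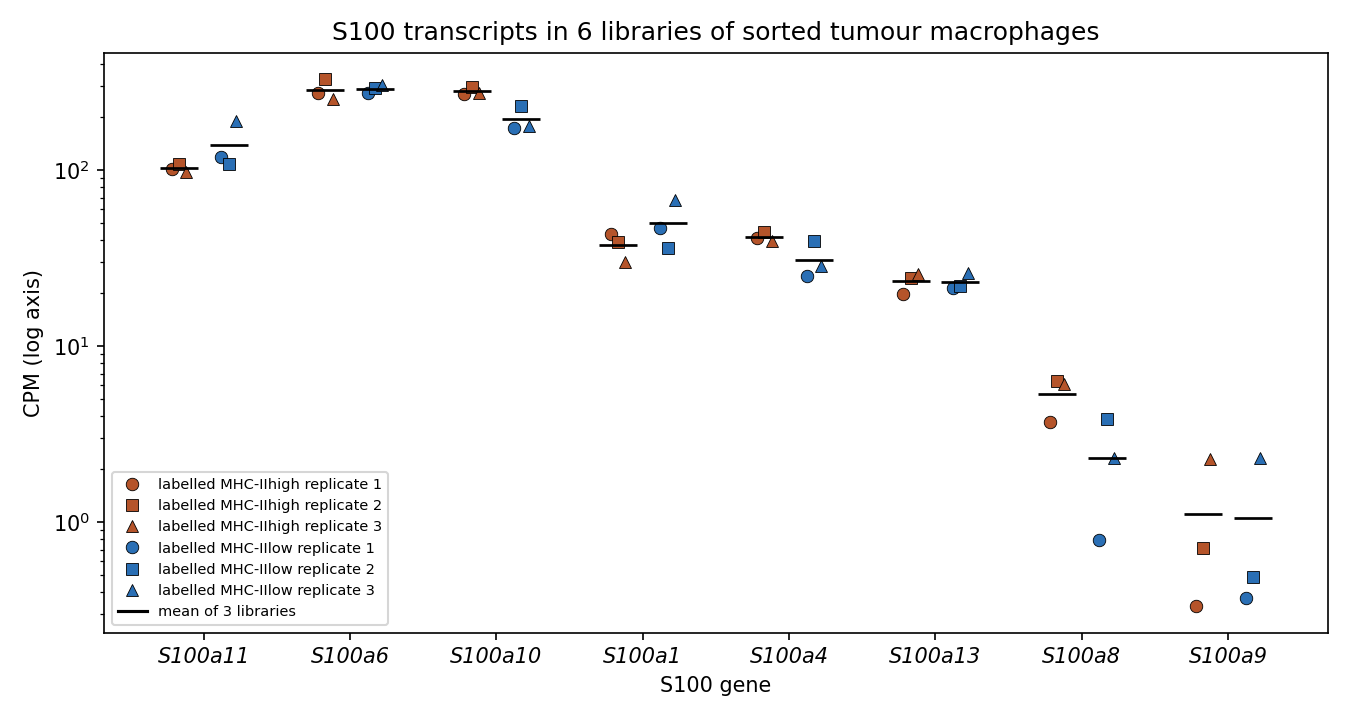
CPM of each of the 8 S100 genes on a log axis, ordered by mean CPM per kb, with a point for each library, labelled MHC-IIhigh left of labelled MHC-IIlow, marker shapes for replicates and a bar at the mean of 3 libraries. S100a10 was the 1 gene whose 2 groups did not overlap (270 to 299 CPM in labelled MHC-IIhigh, 174 to 231 CPM in labelled MHC-IIlow), and S100a8 and S100a9 lay far below the rest.

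The design asks whether S100 transcripts differ between the 2 sorted macrophage populations. None of the 8 genes passed an adjusted p of 0.05 by edgeR's quasi-likelihood test, in which 0.446% of 14140 genes were called, 0.0919% higher and 0.354% lower in labelled MHC-IIhigh. At an unadjusted p under 0.05, 2 of the 8 were on the higher side, S100a10 and S100a8, and 0 on the lower side. Of all tested genes 4.06% were on the higher and 7.99% on the lower side by that measure. DESeq2, which called 2.81% of genes, and limma-voom, which called 0.368%, also called 0 of the 8, as did the fit with the batch as a block (0.29%, 1 gene higher and 40 lower) and that with an offset for GC content (2.59%). The median log2 fold change of the 8, labelled MHC-IIhigh over labelled MHC-IIlow, was 0.22, against -0.02 over all tested genes. In bulk RNA, a change in the share of a cell type and a change of RNA per cell cannot be told apart.

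S100a8, 1 subunit of calprotectin, stood at 3.73, 6.33 and 6.11 CPM in labelled MHC-IIhigh replicates 1, 2 and 3, from 67, 142 and 171 reads. It stood at 0.80, 3.84 and 2.32 CPM in labelled MHC-IIlow replicates 1, 2 and 3, from 15, 94 and 13 reads. The groups overlapped through replicate 1 of the first and replicate 2 of the second, while the gene was higher under the high label in each batch, by 2.22, 0.72 and 1.40 on the log2 scale in batches 1, 2 and 3. Fitted over all libraries, the log2 fold change was 1.20 with a standard error of 0.52, a fold of 2.30 with an unadjusted 95% interval of 1.01 to 5.24, and the adjusted p by edgeR was 0.41, with a range of 0.0448 to 0.948 over 17 alternatives. It passed without labelled MHC-IIlow replicate 2 (adjusted p 0.0448, log2 fold change 2.04), a setting that called 7.16% of all genes and 1.71% as higher. It also passed with no filter on low counts (adjusted p 0.045), where 2.02% were called and 0.416% were higher. Without labelled MHC-IIlow replicate 1 the log2 fold change was 0.77 (adjusted p 0.705), and without labelled MHC-IIlow replicate 3 it was 1.19 (adjusted p 0.607).

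S100a9, the partner subunit, was rarer still, at 0.33, 0.71 and 2.29 CPM in labelled MHC-IIhigh and 0.37, 0.49 and 2.32 CPM in labelled MHC-IIlow for replicates 1, 2 and 3. Both batch 3 libraries were the high ones, and the groups overlapped throughout. From 6, 16 and 64 reads in labelled MHC-IIhigh and 7, 12 and 13 reads in labelled MHC-IIlow, the log2 fold change was 0.43 with a standard error of 0.88 (adjusted p 0.808 by edgeR), and its 95% interval of -1.59 to 2.45 spans changes of several-fold in either direction. Its direction turned without labelled MHC-IIhigh replicate 3 (-0.68) or labelled MHC-IIlow replicate 1 (-0.04), and with the GC offset and batch block together (-0.07). Without labelled MHC-IIlow replicate 3 it was 1.38. S100a8 reads outnumbered S100a9 reads 11.2, 8.88 and 2.67 to 1 in labelled MHC-IIhigh, against 2.14, 7.83 and 1.00 to 1 in labelled MHC-IIlow. S100a8 and S100a9 transcripts were the least alike of the 28 pairs among the 8 genes. Their mean absolute difference of centred log2 CPM over 6 libraries was 1.09. S100a8 was nearly as far from S100a1 (1.046) and S100a11 (1.015), so the distance is not particular to this pair. S100a8 and S100a9 also had the largest SDs of log2 CPM of the 8, 1.06 and 1.13, on few reads.

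Most markers of neutrophils, the cells best known for both genes, were low. Of 15 markers, Ly6g and Camp had 0 reads in all libraries, and the 11 too low to test, these 2 among them, reached at most 0.50 CPM in labelled MHC-IIhigh and 0.36 CPM in labelled MHC-IIlow. The summed list ran from 121 to 185 CPM in labelled MHC-IIhigh and from 152 to 572 CPM in labelled MHC-IIlow, mostly from Mmp9, a protease that macrophages also make. By edgeR 0 of 4 tested markers were called, against 0.446% of all tested genes. Padi4, 1 of the 4, stood at 11.7, 6.01 and 7.33 CPM in labelled MHC-IIhigh and 7.94, 1.88 and 9.10 CPM in labelled MHC-IIlow. At an unadjusted p under 0.05 by edgeR, 0 of the 4 were higher and 2 lower, against 4.06% and 7.99% of all tested genes. The 2 were Mmp9, at 95.7, 165 and 96.8 CPM in labelled MHC-IIhigh and 123, 210 and 531 CPM in labelled MHC-IIlow, and Csf3r, the G-CSF receptor gene, at 9.57, 7.40 and 7.62 CPM in labelled MHC-IIhigh and 17.6, 8.05 and 23.6 CPM in labelled MHC-IIlow. Monocyte markers, 12 of 12 with reads, summed to 3867 to 5784 CPM in labelled MHC-IIhigh and 3463 to 6978 CPM in labelled MHC-IIlow, of which Fn1, fibronectin, was the main part, and 0 of 11 tested were called. At an unadjusted p under 0.05 by edgeR, 0 of these 11 were higher and 5 lower, against 4.06% and 7.99% of all tested genes. The groups did not overlap for 4 of the 11, all lower, as for 9.48% of all tested genes. The median log2 fold change of the 11 was -0.84. Ccr2, the chemokine receptor of monocytes, stood at 160, 229 and 246 CPM in labelled MHC-IIhigh and 515, 763 and 286 CPM in labelled MHC-IIlow. Ly6c2, which encodes a Ly6C protein, stood at 0.11 to 0.46 CPM in labelled MHC-IIhigh and 0.29 to 1.07 CPM in labelled MHC-IIlow. The part of neutrophils and monocytes in the S100a8 and S100a9 values was not tested. The gene most like S100a9 over the 6 libraries was Mmp8, neutrophil collagenase, with a mean absolute difference of 0.46 in centred log2 CPM. Mmp8 stood at 3.51, 5.66 and 11.3 CPM in labelled MHC-IIhigh and at 3.14, 4.50 and 6.60 CPM in labelled MHC-IIlow, highest in batch 3 under both labels as S100a9 was.

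S100a10, also called p11, binds annexin A2 at the membrane and helps to generate plasmin there. It stood at 270, 299 and 276 CPM in labelled MHC-IIhigh and at 174, 231 and 180 CPM in labelled MHC-IIlow for replicates 1, 2 and 3. It was the 1 S100 gene of the 8 with no overlap between groups. Like S100a8 and S100a4, it was higher in 3 of 3 batches, by 0.63, 0.37 and 0.62 on the log2 scale, as were 20.8% of tested genes. All 3 labelled MHC-IIhigh libraries lay above all labelled MHC-IIlow libraries for 10.5% of tested genes. Its log2 fold change was 0.53 with a standard error of 0.18, a fold of 1.44 with an unadjusted 95% interval of 1.08 to 1.93, and it did not pass (adjusted p 0.349 by edgeR, 0.543 with the batch block, 0.0317 to 0.848 over 17 alternatives). It passed with both the GC offset and the block (log2 fold change 0.70, adjusted p 0.0317), where 4.36% of genes were called and 1.7% were higher. S100a10 also passed without labelled MHC-IIlow replicate 2 (log2 fold change 0.70, adjusted p 0.0478), where 7.16% were called and 1.71% were higher. Without labelled MHC-IIlow replicate 3 its log2 fold change was 0.47 (adjusted p 0.398).

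Anxa2, annexin A2 itself, stood at 825, 792 and 650 CPM in labelled MHC-IIhigh and at 594, 510 and 520 CPM in labelled MHC-IIlow. These groups did not overlap either, and the log2 fold change of 0.48 had a standard error of 0.18. Its adjusted p was 0.384 by edgeR, 0.034 with the GC offset and 0.012 with the offset and batch block, the lowest of 17 alternatives that reached 0.848. Per kb of exon, the ratio of S100a10 to Anxa2 was 1.16 ± 0.15 in labelled MHC-IIhigh and 1.12 ± 0.25 in labelled MHC-IIlow (SD, n = 3 each), so that the difference in ratio was smaller than its spread.

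**Figure D2:**
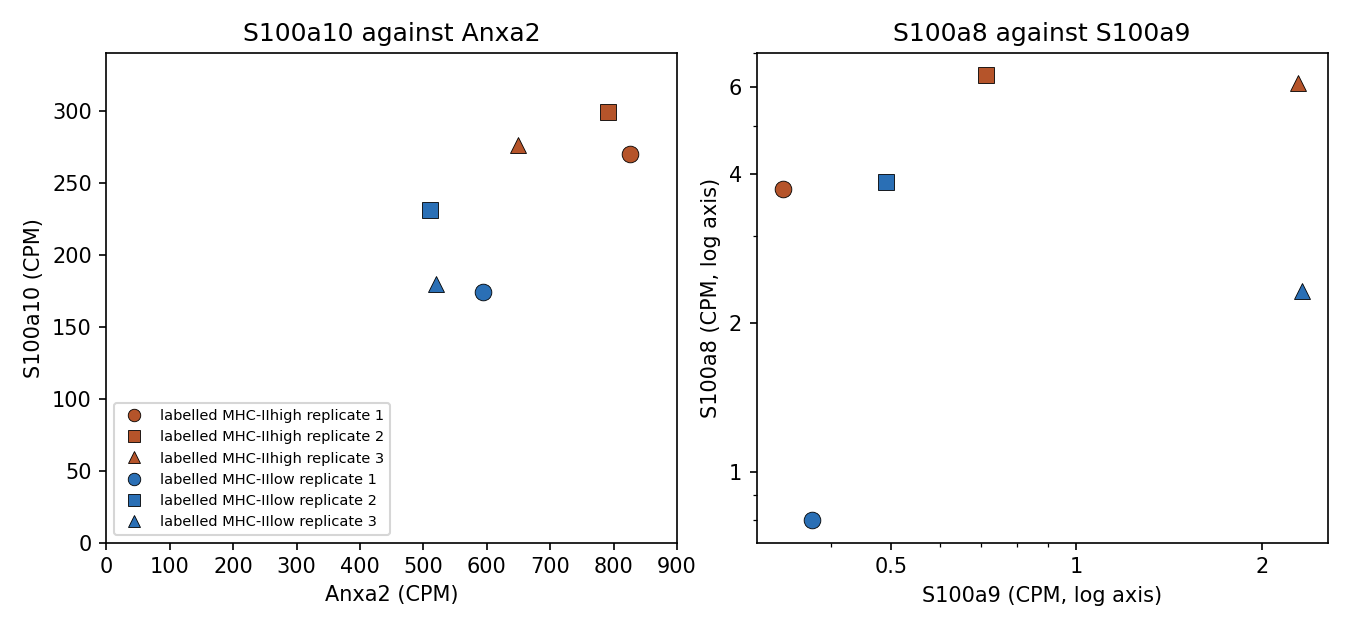
Left panel, CPM of S100a10 against CPM of Anxa2 on linear axes, and right panel, CPM of S100a8 against CPM of S100a9 on log axes, with a point for each library. In the left panel the 3 labelled MHC-IIhigh libraries are above all 3 labelled MHC-IIlow libraries on both axes, while in the right panel the batch 3 libraries, at 2.29 and 2.32 CPM of S100a9, are parted from the others.

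S100a4, known also as metastasin or fibroblast-specific protein, binds the heavy chain of non-muscle myosin IIA. It stood at 41.3, 44.7 and 39.5 CPM in labelled MHC-IIhigh and at 25.0, 39.6 and 28.7 CPM in labelled MHC-IIlow. The groups overlapped by a little, since labelled MHC-IIhigh replicate 3 lay just below labelled MHC-IIlow replicate 2. Within batches 1, 2 and 3, S100a4 was higher under the high label by 0.73, 0.17 and 0.46 on the log2 scale. By edgeR the log2 fold change was 0.42 (SE 0.21, adjusted p 0.445). Fibroblast markers summed to 73.4 to 413 CPM in labelled MHC-IIhigh and 130 to 603 CPM in labelled MHC-IIlow, with 8 of 8 detected, and their part in S100a4 was not tested. S100a4 and S100a10 were the most alike pair of the 8, with a mean absolute difference of 0.075 in centred log2 CPM.

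S100a6, or calcyclin, binds the CacyBP protein of the ubiquitin pathway. It was among the steadiest transcripts, at 275, 329 and 255 CPM in labelled MHC-IIhigh and 276, 293 and 306 CPM in labelled MHC-IIlow. Its SD of log2 CPM over the 6 libraries was 0.13, a value under which only 5.26% of tested protein-coding genes lay. Its log2 fold change was -0.03 with a standard error of 0.17 (adjusted p 0.944 by edgeR), and the unadjusted 95% interval of the fold ran from 0.744 to 1.29. S100a11, a partner of annexin A1 in membrane repair, stood at 101, 109 and 97.8 CPM in labelled MHC-IIhigh and at 120, 109 and 191 CPM in labelled MHC-IIlow. The last value, from replicate 3, was the highest by far. Its difference was -0.44 on the log2 scale (SE 0.24, adjusted p 0.453 by edgeR), and -0.15 (adjusted p 0.82) without labelled MHC-IIlow replicate 3.

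S100a1, best known from heart and skeletal muscle, where it acts on calcium cycling, stood at 43.7, 39.4 and 30.3 CPM in labelled MHC-IIhigh and at 47.1, 36.4 and 68.0 CPM in labelled MHC-IIlow. The lowest value came from labelled MHC-IIhigh replicate 3 and the highest from labelled MHC-IIlow replicate 3. Its fitted log2 fold change was -0.41 with a standard error of 0.26 (adjusted p 0.494 by edgeR), -0.15 without labelled MHC-IIlow replicate 3 and -0.06 with the GC offset. S100a13, which takes part in the unconventional export of fibroblast growth factor 1 and interleukin 1 alpha, stood at 19.8, 24.4 and 25.9 CPM in labelled MHC-IIhigh and 21.5, 21.9 and 26.2 CPM in labelled MHC-IIlow. Its groups overlapped, and the log2 fold change was 0.02 (SE 0.20), with an interval of the fold from 0.739 to 1.38. The head-to-head genes S100a1 and S100a13 were not held at 1 ratio. S100a1 to S100a13 was 2.21, 1.61 and 1.17 in labelled MHC-IIhigh and 2.19, 1.66 and 2.59 in labelled MHC-IIlow, close between labels in batches 1 and 2 and apart in batch 3.

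**Figure D3:**
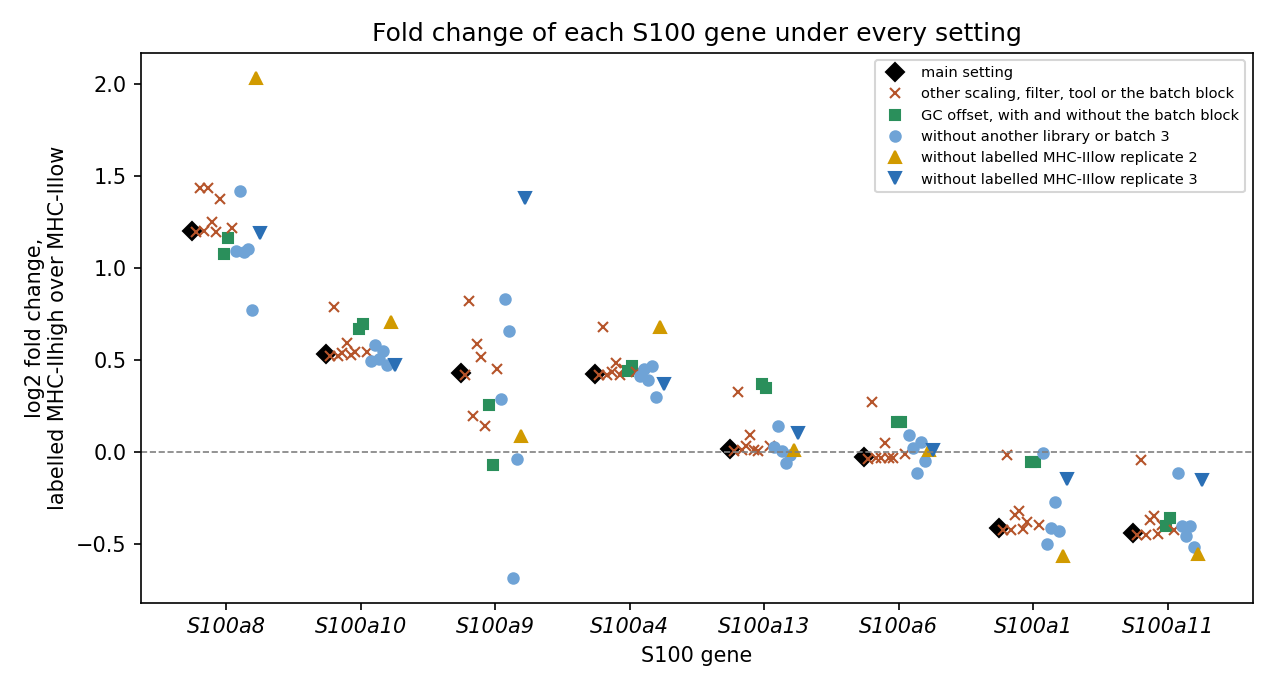
The log2 fold change, labelled MHC-IIhigh over MHC-IIlow, of each of the 8 S100 genes, with a point for each setting, by kind of setting. S100a8, S100a10 and S100a4 stayed above 0 and S100a1 and S100a11 below 0 in all 17 alternatives, whereas S100a6, S100a9 and S100a13 had values on both sides. S100a1 and S100a11 came close to 0, at -0.0038 and -0.043 at their highest.

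The 3 genes nearest in pattern to each of the 6 S100 genes other than S100a8 and S100a9 differed from them by 0.02 to 0.07 in centred log2 CPM. They were Alas1, which makes haem, Gemin7 and Marcksl1 for S100a11, and Dut, Pomt2 and Arpin for S100a13. For S100a6 they were Alg2, Cgrrf1 and Dcaf8, and for S100a1 Slc39a13, Mapkbp1 and Pomgnt1. For S100a10 they were Pdhx, Sgcb and Sem1, and for S100a4 Btbd8, 5730455P16Rik and mt-Nd6. S100a8 had no near neighbour, the closest, Cetn4, Fsd1l and Ckap2, differing by 0.33, and after Mmp8 those of S100a9, Kif18b and Hist1h2bb, differed by 0.55 and 0.56. Likeness here describes these 6 libraries only, which differ in depth and GC slope.

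Of 8 matched genes listed from the rest of the S100 family, S100a14, S100g and S100z had 0 reads in all 6 libraries, where 3 reads would be 0.107 to 0.535 CPM. S100a2, outside that list, also had 0 reads in all 6 libraries. S100a3, S100a5, S100a7a and S100a16 had 8, 2, 14 and 51 reads in total and were too low to test. S100b, the S100 protein typical of astrocytes and Schwann cells, had 23, 13 and 30 reads in labelled MHC-IIhigh and 4, 2 and 1 reads in labelled MHC-IIlow. These are 0.98 ± 0.36 CPM in labelled MHC-IIhigh and 0.16 ± 0.068 CPM in labelled MHC-IIlow (SD, n = 3 each), with no overlap. S100b passed the filter on low counts through the 3 labelled MHC-IIhigh libraries alone, so a difference was built into its being tested. No fold change or p-value of it is given.

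Receptors of released S100 proteins were measured by 11 genes, all tested. Of these, 0 were called in either direction, against 0.446% of all tested genes, and the median log2 fold change of the 11 was 0.19. Cd36, a scavenger receptor that binds S100a8 and S100a9 carrying fatty acids, stood at 188, 148 and 179 CPM in labelled MHC-IIhigh and at 71.6, 54.9 and 32.3 CPM in labelled MHC-IIlow. The groups did not overlap and differed by 1.69 on the log2 scale (SE 0.29, adjusted p 0.0655 by edgeR). Its adjusted p was 1.363e-05 by DESeq2, 0.0158 with the GC offset, and 0.0271 without labelled MHC-IIlow replicate 3, and ran from 1.27e-08 to 0.258 over 17 alternatives. Tlr4, a receptor of calprotectin, stood at 104 ± 11 CPM in labelled MHC-IIhigh and 78.2 ± 32 CPM in labelled MHC-IIlow (SD, n = 3 each). The gap came from labelled MHC-IIlow replicate 3, at 41.2 CPM against 91.6 and 102 CPM in replicates 1 and 2 of that label, and the log2 fold change of 0.40 was 0.10 without it. Its co-receptor Ly96 stood at 10.2 ± 0.22 CPM in labelled MHC-IIhigh and 7.64 ± 2.7 CPM in labelled MHC-IIlow (0.39 on the log2 scale, and 0.21 without labelled MHC-IIlow replicate 3). The adaptor Myd88 stood at 19.0 ± 0.93 CPM in labelled MHC-IIhigh and 34.1 ± 11 CPM in labelled MHC-IIlow, with no overlap (log2 fold change -0.84, adjusted p 0.275). The basigin gene Bsg, a receptor of S100a9, stood at 201 ± 7.9 CPM in labelled MHC-IIhigh and 236 ± 64 CPM in labelled MHC-IIlow, a direction that turned under total counts and the GC offset and was lost without labelled MHC-IIlow replicate 3 (0.0031 on the log2 scale). Nptn, which encodes neuroplastin, a receptor of S100a8, stood at 213 ± 25 CPM in labelled MHC-IIhigh and 163 ± 46 CPM in labelled MHC-IIlow, a log2 fold change of 0.38 that was 0.20 without labelled MHC-IIlow replicate 3.

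Of 20 tested genes of intracellular S100 partners 0 were called, against 0.446% of all tested genes, and the median log2 fold change of the 20 was 0.20. The groups did not overlap for 4 on the higher and 1 on the lower side, 20% and 5% of the list, against 10.5% and 9.48% of all genes. At an unadjusted p under 0.05 by edgeR, 1 of 20 was higher and 3 of 20 were lower. Of all tested genes 4.06% were higher and 7.99% lower by that measure, so the lower side was the larger there too. Anxa1, the partner of S100a11, stood at 413, 528 and 524 CPM in labelled MHC-IIhigh and 298, 466 and 236 CPM in labelled MHC-IIlow (0.55 on the log2 scale, SE 0.27, adjusted p 0.437, and 0.35 without labelled MHC-IIlow replicate 3). Trp53, which encodes p53, a target of several S100 proteins, stood at 45.0 ± 5.0 CPM in labelled MHC-IIhigh and 69.2 ± 24 CPM in labelled MHC-IIlow (-0.61 on the log2 scale, and -0.30 without labelled MHC-IIlow replicate 3), and its regulator Mdm2 at 146 ± 7.7 CPM in labelled MHC-IIhigh and 111 ± 15 CPM in labelled MHC-IIlow. Il1a, whose product leaves cells with S100a13, stood at 23.3 ± 7.7 CPM in labelled MHC-IIhigh and 35.5 ± 4.7 CPM in labelled MHC-IIlow (log2 fold change -0.61, adjusted p 0.408, and 0.00829 with the GC offset and batch block). The groups of Il1a overlapped, and its log2 ratios were -1.04, -0.99 and 0.09 in batches 1, 2 and 3. Ryr1, the muscle calcium channel that S100a1 binds, stood at 0.77 ± 0.16 CPM in labelled MHC-IIhigh and 2.14 ± 0.67 CPM in labelled MHC-IIlow (-1.42 on the log2 scale, SE 0.40, adjusted p 0.24).

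**Figure D4:**
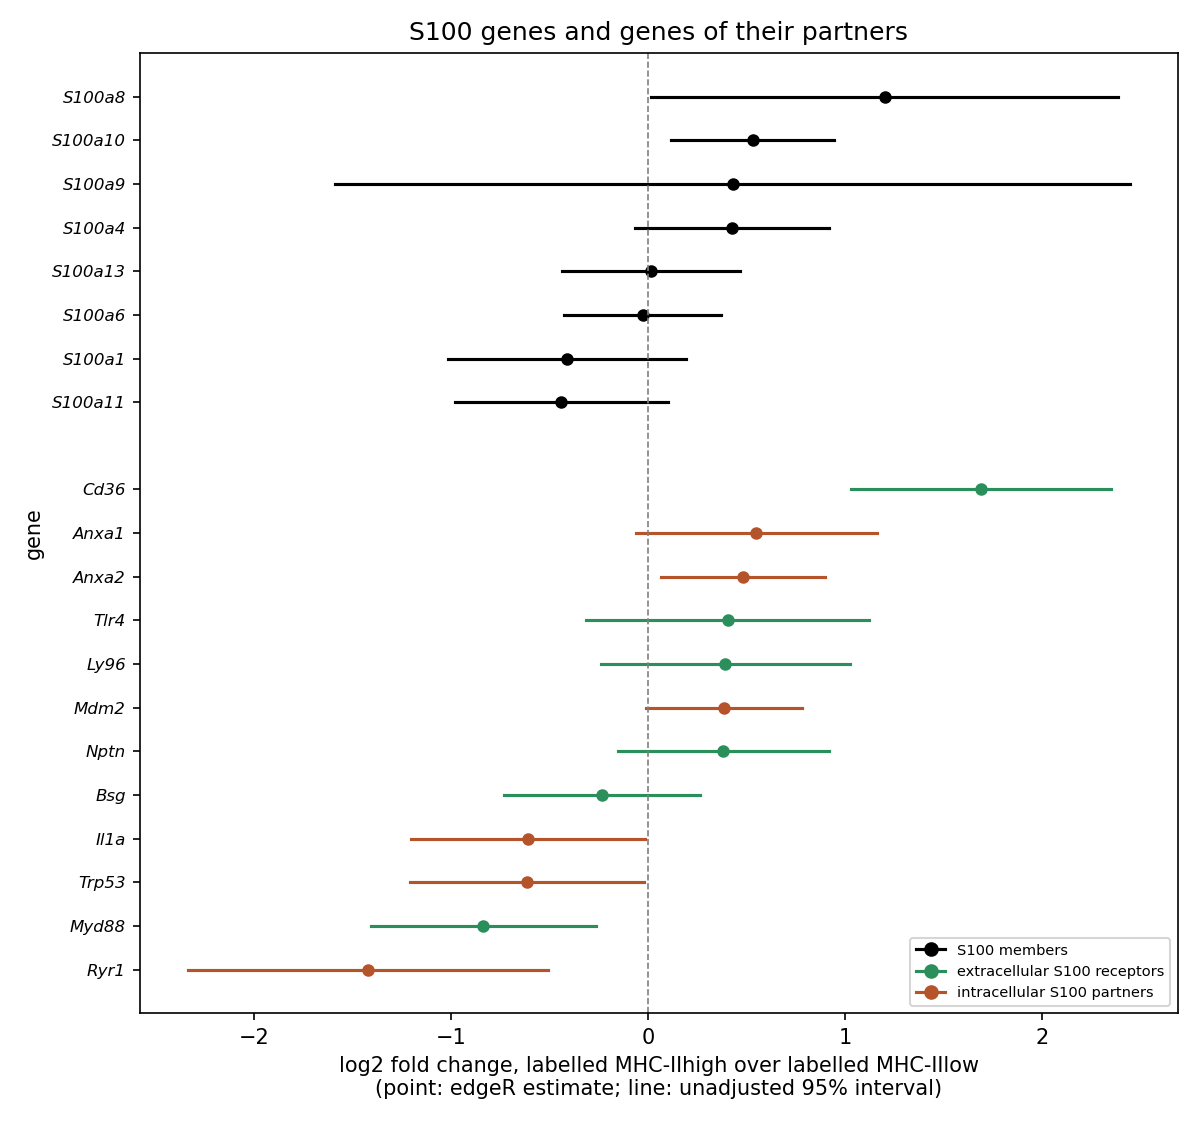
The log2 fold change of the 8 S100 genes (top) and of the named receptor and partner genes (below), with the edgeR estimate as a point and its unadjusted 95% interval as a line. Right of 0 is higher in labelled MHC-IIhigh. The intervals of S100a10 (0.12 to 0.95) and S100a8 (0.02 to 2.39) stay above 0 before adjustment, and none of the genes shown passed it.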

How the data were processed

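Per the labels' protocols, libraries were stranded and made from total RNA after removal of rRNA. The authors deposited raw read counts per Ensembl gene for each library, with 5 summary lines. STAR, HTSeq, Trimmomatic, FastQC, DESeq2 and GRCm38 stand in the submitters' processing notes. Tool versions, annotation and the strand setting are not stated there, so reads of overlapping or antisense genes are uncertain. Reads in no feature (35.2% to 49.4% of those listed), reads with several alignments (7.6% to 17.4%) and ambiguous ones (0.324% to 0.864%) stayed out of library sizes and tests.

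Symbols, positions and exon lengths came from GENCODE M21, which matched 55227 genes. In R 4.3.3, edgeR 4.0.16 computed TMM factors, kept 14140 genes by its default filter (0.534 CPM in at least 3 libraries) and compared labels with its quasi-likelihood test, with Benjamini-Hochberg adjustment over all of them and a threshold of 0.05. CPM values are deposited counts over TMM-scaled library sizes, and standard errors are fold changes over the square root of F. Intervals are unadjusted, at 95%, and 3 reads were taken as the floor. Likeness was the mean absolute difference of log2 CPM (prior count 2), centred per gene, among coding genes of 5 CPM or more. The fits were tested on simulated data.

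Alternatives were RLE factors, total counts, DESeq2 1.42.0, voom of limma 3.58.1, 2 other filters, the batch as a block, a GC offset (local regression of log2 CPM on the GC content of the longest transcript, span 0.4) with and without the block, removal of rRNA and mitochondrial genes, leaving out batch 3, and leaving out each library. Batch numbers in the labels give the pairs, and deviations from group means correlated at 0.159, 0.335 and -0.116 within batches 1, 2 and 3. Members, lists and tests were chosen with earlier results of these data known. Named were all members, other S100 genes with reads, up to 6 genes of each other list ranked by p among those at 1 CPM or more, the check of the sort, and the 3 most alike genes per member. Fn1, Ly6c2, Mmp9, Csf3r, Padi4, Ccr2, Itgax, Flt3, Ccr7, Cd209a, Ccl22, Zbtb46 and markers at 0 were named after their values were seen. S100a7l2 had no match. The result of a gene of the EF-hand list is not reported here.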

Additional observations from a re-analysis of the deposited data

How the results depend on the processing

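The library labelled MHC-IIlow replicate 3 is shallow and rich in rRNA, and S100a8 and S100a9 rest on 13 reads each there. RLE factors, total counts, DESeq2, limma-voom, the 1 CPM filter, the replicate block, the GC offset alone, removal of rRNA and leaving out batch 3 each called 0 of the 8 S100 genes. The count was 1 higher with no filter on low counts, 1 higher with the GC offset and replicate block, and 0 to 2 higher when 1 library was left out, with 0 lower throughout. Over all genes the 13 higher and 50 lower calls became 8 higher with total counts, 121 and 277 with DESeq2, 113 and 436 with no filter, 1 higher with the replicate block, 150 and 216 with the GC offset, 241 and 376 with the offset and block, 0 and 28 without batch 3, and 0 to 246 and 8 to 784 without 1 library. The counts that follow with DESeq2, with no filter and with the offset and block each include S100b, which passed the main filter through 1 label. Its calls are not a test of a difference. Among other S100 and partner genes, 0 called became 2 higher with DESeq2, 2 higher with no filter, 3 higher with the GC offset, 4 higher and 1 lower with the offset and block, and 0 to 2 higher and 0 to 3 lower without 1 library. The replicate block by itself changed no other call among these lists. Total counts shifted the median of all genes to 0.25 on the log2 scale, from -0.02. The fold change of S100a6 turned positive with total counts (0.27, close to that shift), no filter (0.046), the GC offset alone and with the block (0.16 each) and without batch 3 (0.090), and ran from -0.12 to 0.054 without 1 library. S100a13 ran from -0.062 to 0.14 and S100a9 from -0.68 to 1.38 without 1 library, and S100a9 was -0.070 with the GC offset and block. Bsg turned positive with total counts (0.15), the GC offset (0.30, and 0.30 with the block) and without batch 3 (0.037), and ran from -0.34 to 0.0031 without 1 library. The cause of these changes was not tested.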

Other observations

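Other EF-hand proteins, which bind calcium by the same fold as S100 proteins, were measured by 24 genes, of which 23 were tested. By edgeR 0 of the 23 were called in either direction, against 0.446% of all tested genes. An unadjusted p under 0.05 was reached by 2 of the 23, against 12.1% of all tested genes. The median log2 fold change of the 23 was 0.10, with 12 above and 11 below 0. Of the calpain proteases, edgeR gave a log2 fold change of 0.51 for Capn2 (280 ± 18 CPM in labelled MHC-IIhigh and 197 ± 10 CPM in labelled MHC-IIlow; SD, n = 3 each) and -0.96 for Capn1 (29.6 ± 7.4 CPM in labelled MHC-IIhigh and 57.9 ± 32 CPM in labelled MHC-IIlow), at adjusted p values of 0.299 and 0.406. Capn2 passed with the GC offset (adjusted p 0.027). Capn1 was -0.36 with that offset, -0.48 without labelled MHC-IIlow replicate 3 and -0.29 without batch 3, and its log2 ratio in batch 2 was 0.10. Efhd2, swiprosin, stood at 235 ± 62 CPM in labelled MHC-IIhigh and 399 ± 215 CPM in labelled MHC-IIlow (-0.76 on the log2 scale, and -0.28 without labelled MHC-IIlow replicate 3), and Pdcd6, ALG-2, at 46.3 ± 6.1 CPM in labelled MHC-IIhigh and 32.0 ± 10 CPM in labelled MHC-IIlow (0.52, and 0.30 without that library).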
